A study of Mus musculus with 6 samples.

Results

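The genes described here are 40 genes of the interferon response and of MHC class I antigen presentation, taken by name from a written list. That list was chosen with earlier results of these data known. The list holds regulators (Irf7, Irf9, Stat2, Usp18), RNA sensors and effector enzymes, the IFIT family with Isg15, other antiviral effectors, the chemokine Cxcl10, the class I chains and the genes that load them with peptide. All 40 were found among the 55487 genes of the deposited count table, and all 40 had enough counts to be among the 21141 genes tested. The samples were 6 RNA-seq libraries of MIN6, a mouse insulin-secreting line from tumours driven by the viral T antigen under the insulin promoter, which stands in for the beta cell of the islet. In 3 libraries the cells had been transiently transfected with full-length PTHrP (parathyroid hormone-related protein, gene Pthlh), and in 3 with the DsRed control vector. Cells of both groups took up plasmid with Lipofectamine, and their RNA was collected no more than 3 days afterwards. No untransfected library was analysed here, so a response to the transfection itself, shared by both groups, cannot be read from a difference between them. For that reason levels are given as well as differences. MIN6 is 1 line, the share of cells that took up plasmid is not given in the sources used here, and each library averages over cells with and without it.

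Cells sense foreign nucleic acid with receptors such as the RNA helicases Ifih1 and Ddx58 or the DNA sensor Cgas, and answer by making type I interferon. Interferon binds its receptor, the kinases Jak1 and Tyk2 activate STAT proteins, and a complex that holds STAT2 and IRF9 binds an element called ISRE in the promoters of interferon-stimulated genes. Class I molecules are a heavy chain (H2-K1, H2-D1) with beta-2 microglobulin (B2m), filled with peptides by the transporter Tap1/Tap2 and the chaperone tapasin (Tapbp), and they show the cell's peptides to CD8+ T cells. High class I on islet cells and a lasting interferon signature are known features of islets in autoimmune diabetes.

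Many, but not all, of the promoter windows read here held the letters of the element that the interferon complex binds. In the RefSeq promoter windows of GRCm38.p6, which reach from 250 bases before to 50 bases after the start of a gene, 29 of the 40 genes had an entry. Both strands were searched for the ISRE core (GAAA, any 2 bases, GAAA) and for a form that can overlap it (AA, any 2 bases, GAAACT). The core was in 15 of the 29 windows (51.7%), against 1079 of all 27025 genes with a window (3.99%). The second form was in 18 of 29 (62.1%), against 535 of all genes (1.98%). The class I enhancer element (GGGGATT followed by CCCC), a site of the NF-kappaB type, was in H2-K1 and H2-D1 (6.90% of the 29) and in 9 of all genes (0.0333%). These matches are a description of the letters in the windows and not of binding. Below are 5 stretches, shown because they carry these elements and because their genes span the range of levels in MIN6: the abundant H2-K1 and B2m, the intermediate Cxcl10, and the scarce Ifit1 and Isg15. Each is printed in the direction of its gene, with the matched letters of any of the 3 motifs, on either strand, in capitals. H2-K1 had 2 entries, and its later one is shown.
H2-K1, chr17:34000418-34000470, minus strand, bases -137 to -85 from the start: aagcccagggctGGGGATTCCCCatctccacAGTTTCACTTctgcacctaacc
B2m, chr2:122147536-122147569, plus strand, bases -151 to -118 from the start: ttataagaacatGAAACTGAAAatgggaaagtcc
Cxcl10, chr5:92349079-92349114, minus strand, bases -225 to -190 from the start: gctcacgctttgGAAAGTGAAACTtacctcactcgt
Ifit1, chr19:34640771-34640825, plus strand, bases -118 to -64 from the start: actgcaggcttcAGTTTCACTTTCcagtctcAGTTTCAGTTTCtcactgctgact
Isg15, chr4:156200863-156200960, minus strand, bases -142 to -45 from the start: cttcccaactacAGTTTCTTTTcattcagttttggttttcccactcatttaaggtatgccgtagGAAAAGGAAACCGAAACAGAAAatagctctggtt

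In the H2-K1 stretch the kappaB letters are followed by a match to the second ISRE form. The H2-D1 window also held both, but the matches lie in a first exon that GENCODE M21 starts before the RefSeq start, so it is not printed. The genes with the ISRE core in their window ran from Ifit1 at 0.0676 to B2m at 62.3 CPM per kilobase of exon, so the presence of these letters did not go with one level in MIN6. At least 1 of the 3 motifs was found in 22 of the 29 windows, in 8 of the 8 windows of genes under 1 CPM and in 14 of the 21 windows of genes at 1 CPM or more. CPM is the TMM-scaled share of a gene in its library's counts, and CPM per kilobase divides it by exon length so that genes can be compared.

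Some facts of the whole series bear on what follows. Library totals were 84427033 to 94613684 counts, so 3 counts, the limit that a count of 0 allows, correspond to 0.0315 to 0.0353 CPM. This limit covers counting error only, and it takes each count as independent of the others, which was not tested. Many of the smallest counts were even. Ifna5, for example, had 0, 2 and 0 counts in PTHrP and 6, 2 and 6 counts in DsRed. If counts came in pairs, the limit would be higher. The transfected gene separated the groups, with 697, 553 and 797 Pthlh counts in the PTHrP libraries and 0, 4 and 8 in the DsRed libraries. PTHrP replicate 2 stood apart from every other library, with a chi-square per gene of 55.52 to 68.58 against them, and the fold changes it moved by over 1.5 times are given without it. Of 15 beta cell markers all were detected, with summed levels of 58385 to 65039 CPM in the PTHrP and 59480 to 71222 CPM in the DsRed libraries, led by Ins2, Iapp and Ins1. Of 12 leukocyte markers 10 lay under 1 CPM and 1 (Tyrobp) was at 0 in every library, and the list summed to 10.1 to 10.4 CPM in PTHrP and 9.80 to 10.8 CPM in DsRed, led by C1qa, Cd68 and Ptprc. Of 11 fibroblast and endothelial markers 9 lay under 1 CPM, with a sum of 5.59 to 7.96 against 7.07 to 9.49 CPM, led by Col1a2, Pecam1 and Vwf. Of 7 other islet markers 5 lay under 1 CPM, and the highest were the glucagon gene Gcg, at 159 ± 21.2 against 148 ± 4.47 CPM (SD, n = 3), Irx2 and Hhex. Exocrine and duct markers were led by Cela1, Cftr and Krt19, and 6 of 7 lay under 1 CPM. The part of these other-cell markers in the levels below was not tested.

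The highest of the 40 genes were class I genes, and the scarce ones were all antiviral genes. Abundance did not follow role throughout, since Trim25, Usp18 and Ifi27 were high and Nlrc5 was low. H2-Q4 was the lowest class I chain, at 8.23 CPM, but lay above the median of the 40 genes, 4.99 CPM. Mean levels of the 40 genes over the 6 libraries were under 1 CPM in 12, 1 to 10 CPM in 16 and 10 to 100 CPM in 7. They were above 100 CPM in 5, which were H2-D1, Tapbp, H2-K1, Trim25 and Usp18. Of all tested genes 37.9% were under 1 CPM, a larger share than 12 of 40. The 12 scarce genes were Isg15, Ifit1, Ifit3, Ifit3b, Oas1a, Oas2, Mx1, Mx2, Gbp2, Ifi44, Xaf1 and Zbp1, most of them effectors that interferon is known to induce strongly. Together these 12 came to 3.72 ± 0.721 CPM in PTHrP and 3.89 ± 0.305 CPM in DsRed (SD, n = 3). The class I chains and loading genes made up 76.2% ± 1.36 of the summed CPM of all 40 genes in PTHrP and 75.3% ± 0.718 in DsRed (SD, n = 3).

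Levels of different genes were compared per kilobase of exon. On that scale H2-D1 was highest, at 234 CPM per kilobase, above 99.5% of the tested genes with a length. Next came Tapbp at 97.8, H2-K1 at 80.5, B2m at 62.3, Ifi27 at 47.4, Usp18 at 36.7 and Trim25 at 21.5 CPM per kilobase. The lowest were Ifi44 at 0.0469, Oas2 at 0.0558, Zbp1 at 0.0660 and Ifit1 at 0.0676 CPM per kilobase. The median of the 40 genes was 1.02 CPM per kilobase, against 1.57 for all tested genes.

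**Figure D1:**
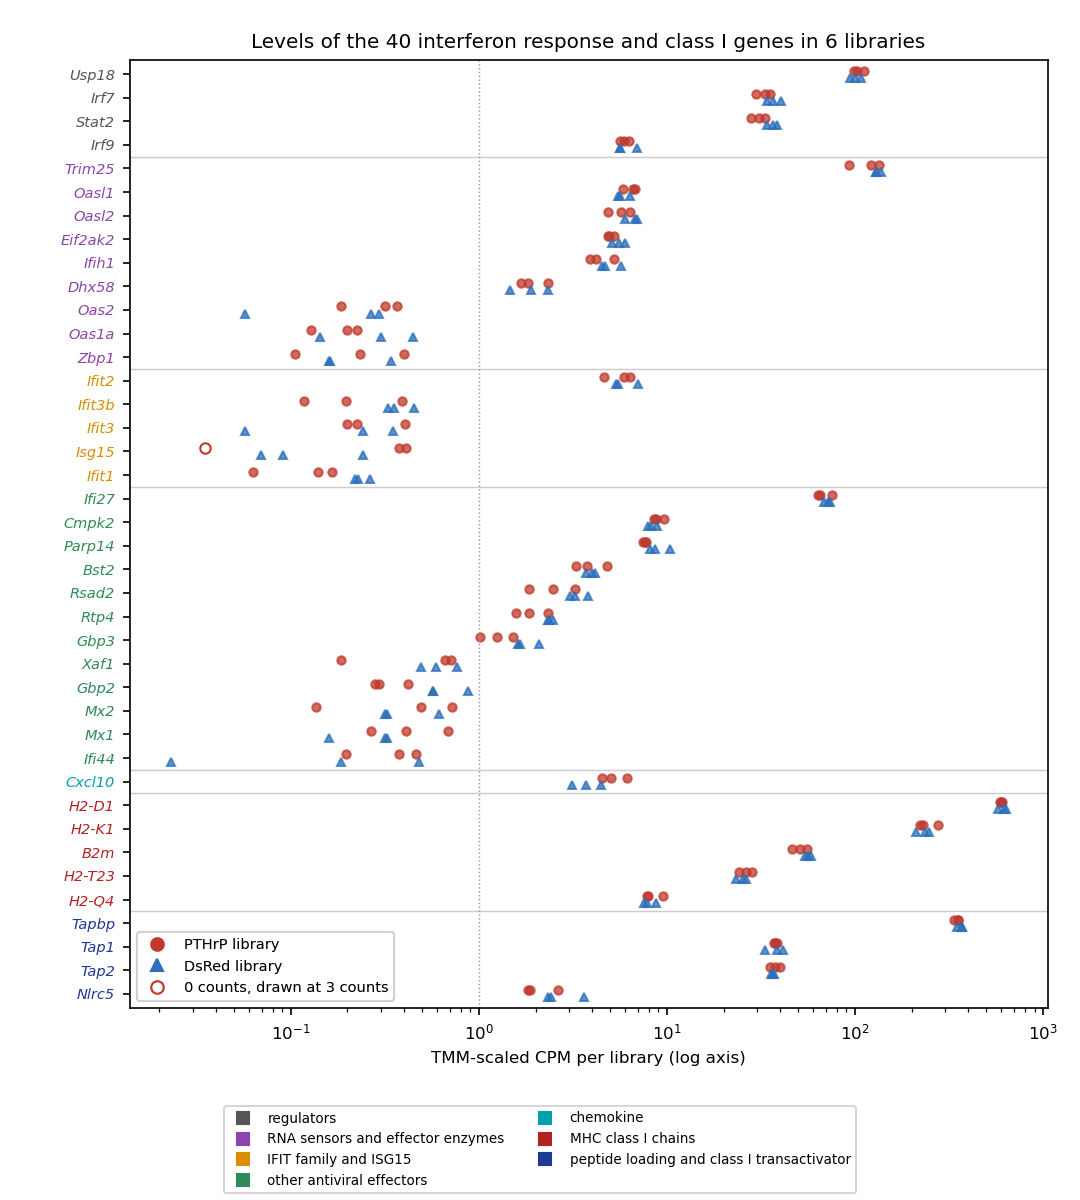
TMM-scaled CPM (log axis) of the 40 genes in each PTHrP library (circles) and DsRed library (triangles), grouped by role and ordered by level within a role, with the dotted line at 1 CPM. H2-D1, Tapbp and H2-K1 lie farthest to the right, 12 antiviral genes lie under 1 CPM in mean level, and circles and triangles of most genes overlap. The open circle is Isg15 in PTHrP replicate 1, which had 0 counts and is drawn at 3 counts.

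The comparison of PTHrP with DsRed asks whether the transfected hormone changed these genes on top of whatever both plasmids did. By the edgeR quasi-likelihood test with Benjamini-Hochberg adjustment, 0 of the 40 genes passed 0.05, where 9 of all 21141 genes did (0.0426%). DESeq2 gave an adjusted p for 30 of the 40 and called 0, where it called 136 of 14992 genes (0.907%), and limma-voom called 0 of the 40 and 18 of all genes (0.0851%). At an unadjusted edgeR p under 0.05 there were 3 of 40 (7.5%), namely Stat2, Cxcl10 and Gbp2, beside 8.90% of all genes. The 3 libraries of one group lay wholly outside those of the other in 7 of 40 genes (17.5%), beside 16.3% of all genes. Of these 7, Cxcl10 lay above in PTHrP, and Stat2, Ifit1, Gbp2, Gbp3, Rtp4 and Parp14 lay below, where 8.45% and 7.88% of all genes did so. The shares by unadjusted p and by overlap lie near those of the genes at large. The 6 genes below are more, and the 1 above fewer, than those shares of 40 genes, and no test was made over the list. In a bulk library, fewer cells with a transcript and less of it per cell cannot be told apart.

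The median log2 fold change (PTHrP minus DsRed) of the 40 genes was -0.05, against -0.01 over all tested genes, with 18 positive and 22 negative values from -1.01 (Gbp2) to 0.97 (Isg15). How closely a difference was bounded depended on level. The 95% interval of the fold change lay within 1.5-fold either way in 23 of the 28 genes at 1 CPM or more (82.1%, beside 80.7% of all genes at that level), and in 0 of the 12 genes under 1 CPM. A 1.5-fold difference in the 23 genes therefore lies outside their intervals. In the 12 scarce genes, and in Cxcl10, Gbp3, Nlrc5, Rsad2 and Rtp4, the interval held such a difference in at least 1 direction. With this spread and number of libraries, these genes were not bounded to within 1.5-fold. Intervals and standard errors (SE) are approximate and rest on the spread between libraries, and nothing in the labels says that these came from separate cultures.

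**Figure D2:**
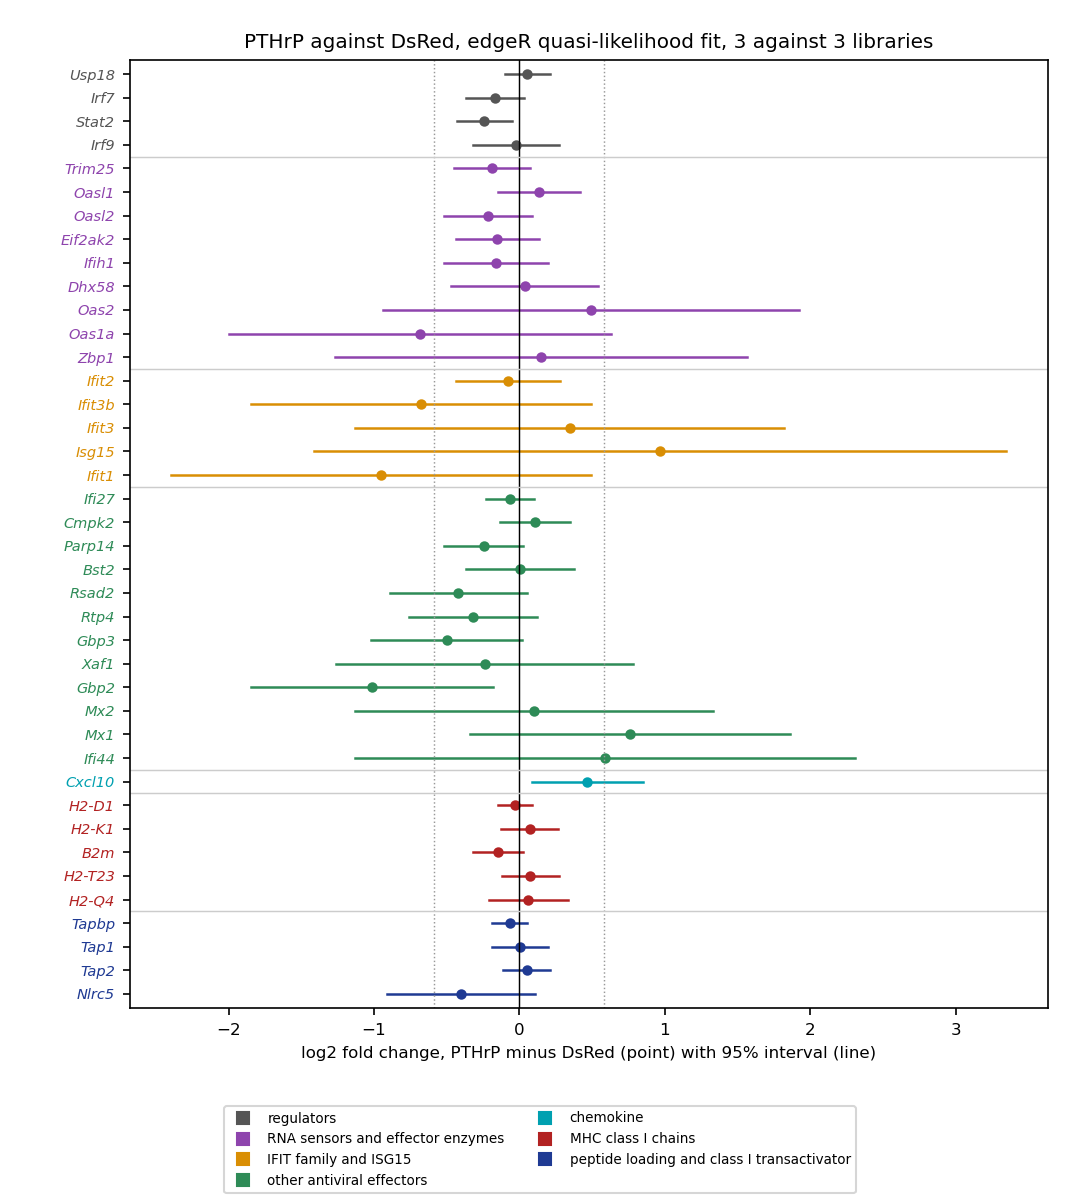
Log2 fold change of PTHrP against DsRed for the 40 genes (points) with 95% intervals (lines) from the edgeR quasi-likelihood fit of 3 against 3 libraries, with dotted lines at 1.5-fold either way. Intervals of the class I chains, Tapbp, Tap1 and Tap2 are narrow and lie near 0, while that of Nlrc5 is wide. Those of the genes under 1 CPM cross at least 1 dotted line, as do those of Nlrc5, Rsad2, Gbp3, Rtp4 and Cxcl10. The intervals of Stat2, Gbp2 and Cxcl10 leave 0 out without passing the adjusted test.

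The regulators were all at 1 CPM or more, and 0 of 4 passed the test. Irf7 (chromosome 7, 141262706 to 141266481), the transcription factor that amplifies interferon production, had 33.4, 35.5 and 29.9 CPM in PTHrP replicates 1, 2 and 3 and 40.3, 36.6 and 33.9 CPM in the DsRed replicates. The highest PTHrP library lay above the lowest DsRed library, and the log2 fold change was -0.17 (SE 0.09, 95% interval -0.37 to 0.03, edgeR adjusted p = 0.631). Stat2 (chromosome 10, 128270559 to 128292849), a subunit of the ISRE-binding complex, had 33.1, 27.8 and 31.0 CPM in PTHrP and 38.4, 36.4 and 33.9 CPM in DsRed. Every PTHrP library of Stat2 lay below every DsRed library, by a small margin between PTHrP 1 and DsRed 3. Its log2 fold change of -0.24 (SE 0.09, interval -0.43 to -0.05) had the smallest p of the 40 genes, 0.0162, and an edgeR adjusted p of 0.428.

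Irf9, the DNA-binding subunit of the same complex, had 5.91, 5.65 and 6.28 CPM in PTHrP and 6.95, 5.59 and 5.61 CPM in DsRed. The groups overlapped, with DsRed 1 highest, and the log2 fold change was -0.02 (interval -0.32 to 0.27, edgeR adjusted p = 0.972). Usp18, which removes ISG15 from proteins and damps receptor signalling, was the highest regulator per kilobase and had 104 ± 6.16 CPM in PTHrP against 100.5 ± 6.84 CPM in DsRed (SD, n = 3). Its log2 fold change was 0.05 (interval -0.10 to 0.21). Usp18 at 36.7 CPM per kilobase thus stood beside Isg15 at 0.263 CPM per kilobase, although both are interferon-induced and act in 1 modification pathway.

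Among the 9 sensors and effector enzymes 0 passed the test, with 4 positive and 5 negative fold changes. Ifih1, the helicase MDA5 that senses long RNA duplexes, had 4.18, 3.89 and 5.22 CPM in PTHrP and 4.66, 5.71 and 4.50 CPM in DsRed. The groups overlapped, at a log2 fold change of -0.16 (interval -0.52 to 0.19, edgeR adjusted p = 0.825). Eif2ak2, the kinase PKR that stops translation upon binding duplex RNA, had 4.92, 5.22 and 4.87 CPM in PTHrP and 5.13, 5.99 and 5.57 CPM in DsRed. PTHrP 2 lay just above DsRed 1, and the log2 fold change was -0.15 (interval -0.44 to 0.13, edgeR adjusted p = 0.786).

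Trim25, the ubiquitin ligase that activates the helicase RIG-I, was the highest of this role, at 21.5 CPM per kilobase. It had 134, 92.5 and 121 CPM in PTHrP and 137, 129 and 129 CPM in DsRed. PTHrP 2 was far below the other 5 libraries, and the log2 fold change of -0.19 (SE 0.12, edgeR adjusted p = 0.683) became -0.05 without that library. Oasl1, an OAS-like protein that in mice restrains Irf7 translation, had 6.76, 6.59 and 5.81 CPM in PTHrP and 5.61, 6.36 and 5.48 CPM in DsRed. PTHrP 3 lay below DsRed 2, so the groups overlapped, at a log2 fold change of 0.13 (edgeR adjusted p = 0.816). Its neighbour Oasl2 had 5.64 ± 0.730 against 6.54 ± 0.476 CPM and Dhx58, the helicase LGP2, had 1.94 ± 0.337 against 1.89 ± 0.427 CPM (SD, n = 3). The remaining enzymes of this role were scarce. Oas1a, a synthetase of the RNase L activator, had 0.184 ± 0.0498 against 0.296 ± 0.152 CPM, Oas2 of the same family 0.290 ± 0.0939 against 0.206 ± 0.130 CPM, and the Z-nucleic acid sensor Zbp1 0.246 ± 0.148 against 0.220 ± 0.103 CPM. Of the 50-base stretches of Oas1a, 57.6% also occur in Oas1g. How reads shared by these 2 genes were assigned is not given, so the level of Oas1a is uncertain.

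In the IFIT family, whose proteins bind foreign RNA ends and block their translation, Ifit2 stood alone above 1 CPM and 0 of 5 genes of this role passed the test. Ifit2 had 5.63 ± 0.908 CPM in PTHrP against 5.94 ± 0.929 CPM in DsRed (SD, n = 3), a log2 fold change of -0.08 (interval -0.43 to 0.28). Per kilobase Ifit2 was at 1.47 and Ifit1 at 0.0676 CPM per kilobase. Ifit1 (chromosome 19, 34640871 to 34650009), the family member that recognises RNA caps lacking methylation, had 12, 14 and 6 counts in PTHrP and 19, 20 and 24 counts in DsRed. That is 0.139, 0.165 and 0.0630 CPM against 0.220, 0.228 and 0.262 CPM. The PTHrP libraries of Ifit1 all lay below the DsRed libraries, yet the log2 fold change of -0.95 had a wide interval (-2.39 to 0.49, edgeR adjusted p = 0.723).

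Ifit3 and Ifit3b are near copies, and 51.2% of the 50-base stretches of Ifit3 also occur in Ifit3b. Ifit3 had 35, 19 and 19 counts in PTHrP and 21, 5 and 32 counts in DsRed, and Ifit3b had 17, 10 and 37 against 39, 31 and 30 counts. Their log2 fold changes had opposite signs, 0.35 for Ifit3 and -0.68 for Ifit3b, and the sum of both genes gave -0.22. None of these 3 values passed the test, and how reads shared by such copies were assigned is not given in the sources used here.

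Isg15 (chromosome 4, 156199424 to 156200818), a ubiquitin-like protein and a common gauge of an interferon response, had 0, 35 and 36 counts in PTHrP and 6, 8 and 22 counts in DsRed. In CPM these are 0, 0.412 and 0.378 against 0.0694, 0.0913 and 0.240. One PTHrP library was the lowest of the 6 and the other two were the highest, so the PTHrP range enclosed the DsRed range. Its fitted log2 fold change of 0.97 (SE 1.07, edgeR adjusted p = 0.845) is no bound, since a library was at 0, and limma-voom gave -0.28.

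Of the 12 other antiviral effectors 0 passed the test, with 5 positive and 7 negative fold changes. Gbp2 (chromosome 3, 142620602 to 142638008), a guanylate-binding GTPase that attacks vacuoles of intracellular pathogens, had 24, 25 and 40 counts in PTHrP and 49, 50 and 80 counts in DsRed. In CPM these are 0.279, 0.294 and 0.420 against 0.567, 0.571 and 0.874, so every PTHrP library lay below every DsRed library. The log2 fold change was -1.01 (SE 0.38, interval -1.85 to -0.18), with an unadjusted p of 0.0213 and an edgeR adjusted p of 0.463. Gbp3, of the same family, had 1.52, 1.01 and 1.25 CPM in PTHrP and 2.09, 1.61 and 1.65 CPM in DsRed. The groups of Gbp3 did not overlap either, at a log2 fold change of -0.50 (SE 0.24, edgeR adjusted p = 0.575).

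Parp14, an ADP-ribosyltransferase induced by interferon, had 7.45, 7.67 and 7.76 CPM in PTHrP and 8.60, 10.4 and 8.11 CPM in DsRed. The groups did not overlap, with DsRed 2 farthest out, and the log2 fold change was -0.25 (SE 0.12, edgeR adjusted p = 0.602). Rsad2, the radical SAM enzyme viperin that makes a chain-terminating nucleotide, had 1.85, 3.23 and 2.47 CPM in PTHrP and 3.06, 3.79 and 3.25 CPM in DsRed. PTHrP 2 lay within the DsRed range, and the log2 fold change was -0.42 (SE 0.21, edgeR adjusted p = 0.608). Without PTHrP 2 the edgeR adjusted p of Rsad2 was 0.177, the lowest of any of the 24 genes followed under any alternative. Its genomic neighbour Cmpk2, a nucleotide kinase of mitochondria, had 8.57, 9.62 and 8.73 CPM in PTHrP and 8.82, 7.97 and 8.20 CPM in DsRed. Only DsRed 1 lay within the PTHrP range of Cmpk2, and the log2 fold change was 0.11 (SE 0.11, edgeR adjusted p = 0.828).

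The myxovirus resistance GTPase Mx1 had 0.267, 0.682 and 0.410 CPM in PTHrP and 0.324, 0.160 and 0.317 CPM in DsRed. The ranges overlapped, and its log2 fold change of 0.76 (SE 0.50) had an edgeR adjusted p of 0.707. Mx2 had 0.450 ± 0.294 against 0.419 ± 0.171 CPM (SD, n = 3). The highest effector per kilobase was Ifi27, a mitochondrial protein, at 47.4 CPM per kilobase. It had 68.0 ± 6.22 against 71.1 ± 2.44 CPM with a log2 fold change of -0.06, and of -0.14 without PTHrP 2. Bst2 (tetherin, which holds virions at the cell surface) had 3.96 ± 0.775 against 3.95 ± 0.232 CPM, and Rtp4 had 1.92 ± 0.387 against 2.39 ± 0.0702 CPM with PTHrP wholly below. For Rtp4, PTHrP 3 at 2.332 CPM nearly met DsRed 1 at 2.338 CPM (edgeR adjusted p = 0.687). Exons of Rtp4 share 296 bases on the same strand with Gm45338, whose counts summed to 45 over the 6 libraries. Xaf1, a promoter of apoptosis, had 0.520 ± 0.290 against 0.615 ± 0.138 CPM. Ifi44 ranged from 2 counts in DsRed 1 to 44 counts in PTHrP 3, and 17 to 42 counts in the others.

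Cxcl10 (chromosome 5, 92346638 to 92348889), the chemokine that draws activated T cells into islets, was the gene that lay wholly above in PTHrP. It had 432, 518 and 429 counts in PTHrP and 320, 275 and 407 counts in DsRed. In CPM these are 5.02, 6.09 and 4.51 against 3.70, 3.14 and 4.45, so PTHrP 3 and DsRed 3 nearly met. The log2 fold change was 0.47 (SE 0.17, interval 0.09 to 0.85), with an unadjusted p of 0.0208 and an edgeR adjusted p of 0.459. Leaving out each library in turn gave 0.34 to 0.60. Exons of Cxcl10 share 133 bases with Art3 on the opposite strand, whose counts summed to 76 over the 6 libraries.

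Of the 5 class I chains 0 passed the test, and the intervals of all 5 lay within 1.5-fold. H2-D1 (chromosome 17, 35262730 to 35267499) had 590.2, 608 and 596 CPM in PTHrP and 623, 634 and 575 CPM in DsRed. The DsRed range enclosed the PTHrP range, at a log2 fold change of -0.03 (SE 0.05, interval -0.15 to 0.09, edgeR adjusted p = 0.913). H2-K1 (chromosome 17, 33996017 to 34000347) had 229.8, 277 and 220.3 CPM in PTHrP and 235, 246 and 211 CPM in DsRed. PTHrP 2 was highest and the rest were interleaved. The log2 fold change of H2-K1 was 0.07 (interval -0.13 to 0.27, edgeR adjusted p = 0.869), and -0.03 without PTHrP 2.

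B2m (chromosome 2, 122147686 to 122153083), the light chain, had 46.0, 50.8 and 55.6 CPM in PTHrP and 58.3, 54.2 and 56.5 CPM in DsRed. PTHrP 3 lay between DsRed 2 and DsRed 3, and the other two PTHrP libraries lay below. Its log2 fold change was -0.15 (SE 0.08, interval -0.32 to 0.02, edgeR adjusted p = 0.624). Per kilobase, the sum of H2-K1 and H2-D1 was 5.74, 5.58 and 4.73 times B2m in PTHrP and 4.74, 5.23 and 4.48 times in DsRed, or 5.35 ± 0.542 against 4.82 ± 0.378 (SD, n = 3). The groups of this ratio overlapped. H2-D1 per kilobase was 2.84 ± 0.299 times H2-K1 in PTHrP and 3.02 ± 0.0881 times in DsRed (SD, n = 3). The nonclassical chains were lower, H2-T23 at 8.88 and H2-Q4 at 3.17 CPM per kilobase. H2-T23 (Qa-1, which presents leader peptides to NK receptors) had 26.3 ± 2.16 against 25.0 ± 1.60 CPM, and H2-Q4 had 8.41 ± 0.946 against 8.06 ± 0.661 CPM (SD, n = 3). Shared 50-base stretches with other genes made up 9.63% of H2-K1, 12.8% of H2-D1, 13.6% of H2-T23 and 21.8% of H2-Q4, so part of each count may belong to a related class I gene.

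Of the 4 genes of peptide loading and class I transcription 0 passed the test. Tapbp, tapasin, had 352, 354 and 334 CPM in PTHrP and 371, 372 and 346 CPM in DsRed. PTHrP 1 and PTHrP 2 lay above DsRed 3, and the log2 fold change was -0.07 (SE 0.05, interval -0.19 to 0.05, edgeR adjusted p = 0.763). Tap1, a subunit of the peptide transporter, had 38.5, 37.6 and 37.3 CPM in PTHrP and 38.2, 41.6 and 33.1 CPM in DsRed. The PTHrP libraries of Tap1 were close together inside the DsRed range, at a log2 fold change of 0.00 (interval -0.19 to 0.20). Its partner Tap2 had 37.7 ± 2.22 against 36.4 ± 0.646 CPM (SD, n = 3). Nlrc5, the transactivator of class I promoters, was far lower at 0.288 CPM per kilobase. It had 1.87, 2.63 and 1.83 CPM in PTHrP and 3.63, 2.41 and 2.32 CPM in DsRed. DsRed 1 was highest, PTHrP 2 lay within the DsRed range, and the log2 fold change of -0.40 (SE 0.23, interval -0.91 to 0.11) had an edgeR adjusted p of 0.658. Without DsRed 1 it was -0.17.

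The libraries were not evenly placed over these genes. Among the 28 genes at 1 CPM or more, DsRed 1 was the highest library in 9 and the lowest in 0, while over all 13127 genes at that level it was highest in 16.4% and lowest in 15.9%. DsRed 3, of the same group, was highest in 1 gene and lowest in 8 (28.6%), beside 12.7% and 20.7% of all genes. PTHrP 2 was highest in 7 (25.0%) and lowest in 5 (17.9%), beside 24.6% and 27.9% of all genes, so for its highest values it stood where it did over the genes at large. PTHrP 3 was highest in 1 and lowest in 6 (21.4%), beside 12.6% and 12.4%. No test was made of these counts. Without PTHrP 2, the log2 fold changes of Trim25 and H2-K1 moved as given above. Those of the other followed genes that moved by over 1.5 times or changed sign became 0.34 for Mx1, 0.50 for Isg15, -0.36 for Ifit3b, -0.64 for Rsad2, -0.07 for Ifih1, 0.06 for Cmpk2, 0.01 for Irf9 and 0.01 for Tap1. With all 6 libraries 3 of the 40 genes had an unadjusted p under 0.05. Without DsRed 1 this was 1 (Gbp2), a fit for which the share of all genes is not given here. Without PTHrP 2 it was 6 (Rsad2, Irf7, Gbp2, Stat2, Ifi27 and Nlrc5), beside 13.0% of all genes then tested. The adjusted edgeR test called 0 of the 40 genes without DsRed 1 and 0 without PTHrP 2, where it called 0.954% of all genes in the latter case.

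**Figure D3:**
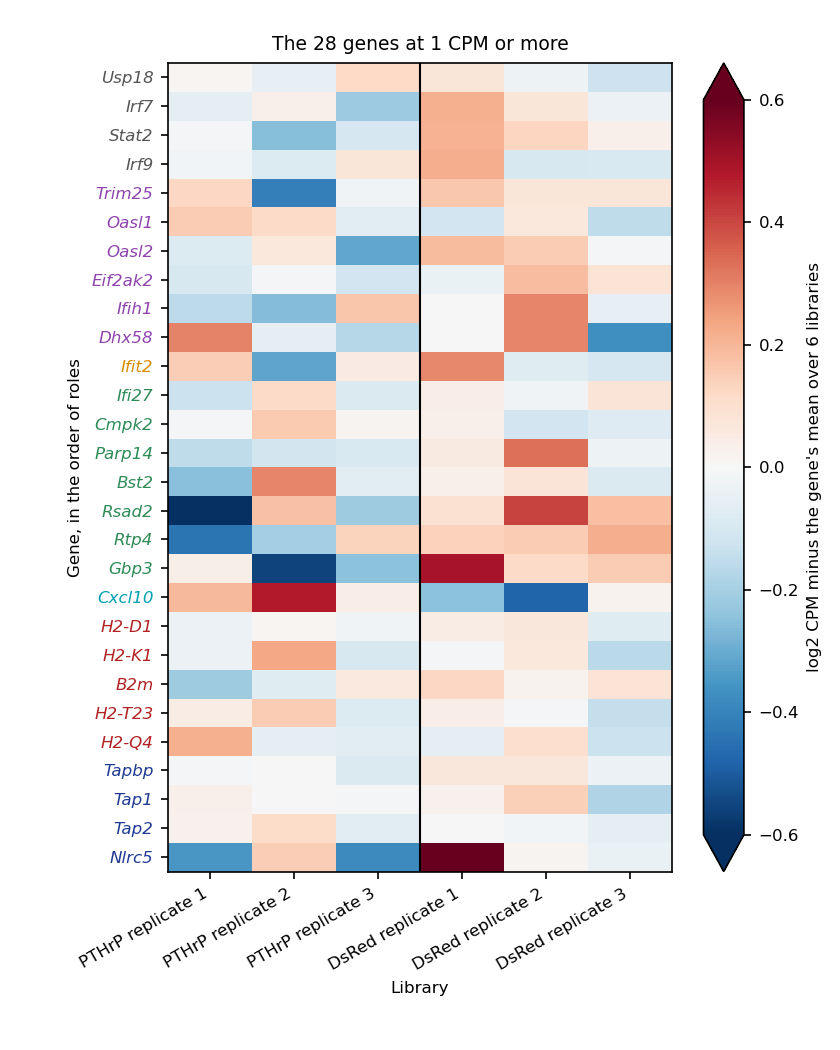
Log2 CPM of each library minus the gene's mean over the 6 libraries (colour, blue below and red above, ends of the scale at 0.6) for the 28 genes at 1 CPM or more, with the PTHrP libraries left of the line. DsRed replicate 1 is the highest library in 9 genes and the lowest in 0, where it is highest in 16.4% and lowest in 15.9% of all genes at that level.

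The rest of the pathway was followed with 175 gene symbols, of which 172 were found and 131 tested. By edgeR 0 of 131 passed the adjusted test, while 4 higher and 8 lower in PTHrP had an unadjusted p under 0.05, beside 8.90% of all genes, and the lowest adjusted p was 0.303. The median log2 fold change was -0.04, with 46 positive and 85 negative values, where 51.3% of all genes were negative. DESeq2 called 0 of the 107 to which it gave an adjusted p, and limma-voom 0 of 131. Interferon genes themselves were at or near 0. None of 21 ligands had enough counts to test, 6 were at 0 in all libraries, and the summed counts of the list were 17 to 76 per PTHrP library and 22 to 56 per DsRed library. Ifnb1, interferon beta, had 0, 34 and 4 counts in PTHrP and 6, 8 and 3 counts in DsRed, with PTHrP 2 far above the rest.

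The receiving machinery was present. Jak1 had 413 ± 12.5 against 410.0 ± 11.9 CPM, and the phosphatase gene Ptpn11 and Stat3 were next by CPM among the 17 receptor, kinase and STAT genes. Stat3, which carries cytokine signals of the IL-6 family, had 221 ± 21.5 against 248 ± 8.74 CPM at a log2 fold change of -0.17 (edgeR adjusted p = 0.520). The interferon gamma receptor chain Ifngr2 had 33.0 ± 2.30 against 27.1 ± 1.62 CPM, wholly above in PTHrP, at 0.29 (edgeR adjusted p = 0.368). All values with an error here are means with SD, n = 3.

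Among the nucleic acid sensing genes, 21 of which were tested, the highest by CPM were Rela, Traf6 and Tbk1, shared signalling parts that many pathways use. Rnf125, a ubiquitin ligase that limits RIG-I signalling, had 2.73 ± 0.650 against 3.81 ± 0.216 CPM at -0.48 (edgeR adjusted p = 0.492), and the adaptor Ticam1 had 4.03 ± 0.485 against 5.03 ± 0.503 CPM at -0.32 (edgeR adjusted p = 0.575). The DNA sensor Cgas had 6.71 ± 1.87 against 7.86 ± 0.459 CPM, whereas its partner Sting1 had 13, 19 and 22 counts in PTHrP and 18, 9 and 17 counts in DsRed. Sting1 was thus at 0.202 against 0.166 CPM, with overlapping groups. Ifnb1, Cgas and Sting1 were named here after their values were seen.

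Of 60 other interferon-stimulated genes tested, 20 had positive and 40 negative fold changes with a median of -0.06. The highest by CPM were Tor3a, Lgals3bp and Pnpt1, and 30 of the 70 on the list lay under 1 CPM, beside 12 of the 40. Epsti1 had 0.302 against 0.705 CPM at -1.22 (edgeR adjusted p = 0.486), and Tor1aip1, a nuclear envelope protein, had 60.6 ± 7.45 against 69.0 ± 2.26 CPM at -0.19 (edgeR adjusted p = 0.567).

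Other class I and antigen processing genes were led by the ER chaperones Calr, Pdia3 and Canx, which help fold class I chains and other glycoproteins. Calr had 1066 ± 68.2 against 1182 ± 118 CPM and Pdia3 872 ± 116 against 1045 ± 90.0 CPM (SD, n = 3), at -0.15 and -0.26 (edgeR adjusted p = 0.598 and 0.483). The smallest p values of the list belonged to Creb1, a transcription factor, and Mr1, a class I-like molecule that presents vitamin metabolites. Creb1 had 67.8 ± 5.18 against 82.0 ± 4.40 CPM at -0.27 (edgeR adjusted p = 0.337). Mr1 had 49, 80 and 92 counts in PTHrP and 20, 18 and 43 counts in DsRed, all PTHrP libraries above, at 1.44 (SE 0.42, edgeR adjusted p = 0.368). With no filter on low counts, 220 of 44413 genes passed the edgeR test. Pdia3 (adjusted p = 0.0117, log2 fold change -0.25) and H2-T22 (adjusted p = 0.0210, log2 fold change -0.45) were among them.

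Class II genes, normally restricted to antigen-presenting cells, were led by H2-DMa at 2.57 against 2.64 CPM, followed by Cd74 and H2-Eb1 below 1 CPM. Ciita, the class II transactivator and a relative of Nlrc5, had 8, 18 and 7 counts in PTHrP and 55, 30 and 70 counts in DsRed, or 0.126 ± 0.0748 against 0.581 ± 0.217 CPM (SD, n = 3). All PTHrP libraries of Ciita lay below all DsRed libraries, at a log2 fold change of -2.20 (SE 0.55, edgeR adjusted p = 0.303). Ciita passed the edgeR test with no filter on low counts (adjusted p = 0.0401) and without PTHrP 2 (adjusted p = 0.0370, log2 fold change -2.79). Of the 7 leukocyte markers tested 3 had positive and 4 negative fold changes, with a median log2 fold change of -0.66. Of these 7, 1 was lower in PTHrP at an unadjusted edgeR p under 0.05, beside 8.90% of all genes in either direction. C1qa was at 7.36 against 6.77 CPM, Cd68 at 1.44 against 1.23 CPM and Ptprc at 0.453 against 0.934 CPM. Their part in the value of Ciita was not tested.

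**Figure D4:**
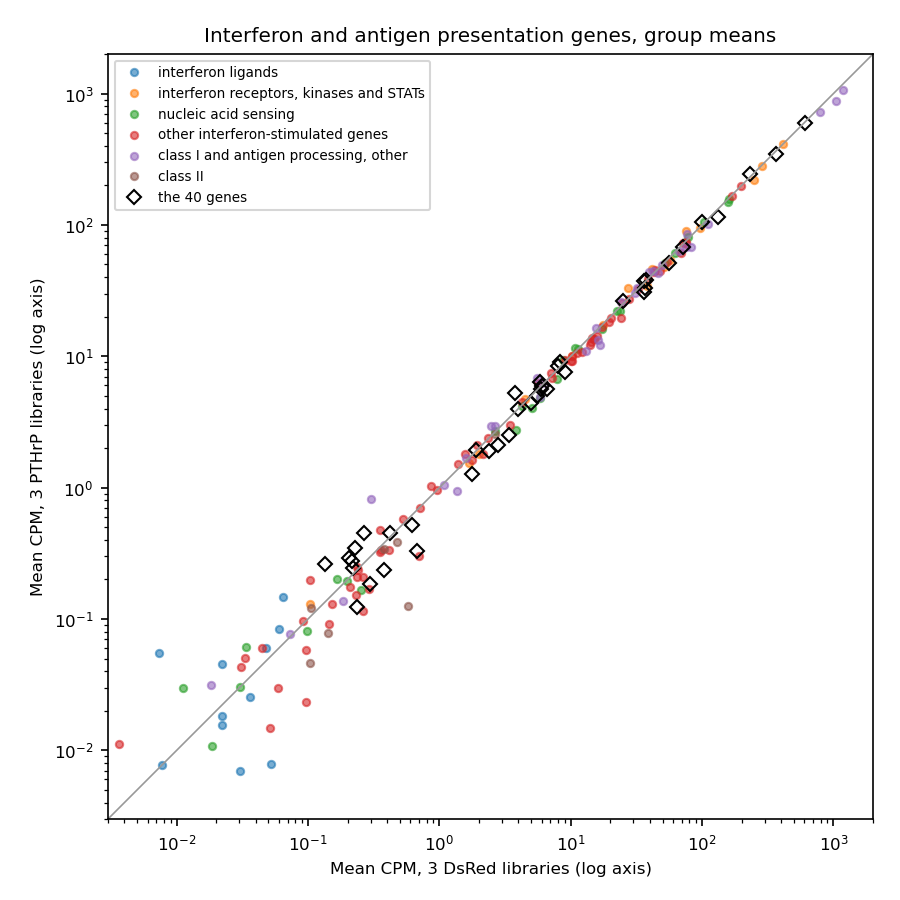
Mean CPM of the 3 PTHrP libraries against mean CPM of the 3 DsRed libraries (both axes log) for the 40 genes (diamonds) and the other pathway genes (coloured points), with the line of equality. Points at 10 CPM or more lie close to the line and points under 1 CPM scatter around it. The plot leaves out 12 of 173 pathway entries whose mean was 0 in a group.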

How the data were processed

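The deposited values are raw counts per gene and library, which the authors made on GRCm38 with STAR and featureCounts 2.0.3 (Subread), per the submitters' processing notes. Its gene annotation, strandedness and handling of multi-mapping reads were not given in the sources used here, which leaves overlapping genes and near-identical copies uncertain. Exons of Tapbp share 149 bases with Zbtb22 (35669 counts over the 6 libraries) and those of Irf9 share 123 with Rnf31 (10669), on the same strand. On the opposite strand, exons of Irf7 share 45 bases with Phrf1 (65938) and those of Tap1 share 212 with Psmb9 (8525). Of 55774 entries, 287 repeated an identifier with identical counts and were removed.

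The 40 genes and all lists were chosen with earlier results of these data known. Groups and replicate numbers come from the library titles. Counts were filtered with filterByExpr and TMM-scaled, and PTHrP was tested against DsRed with the edgeR 4.0.16 quasi-likelihood test (robust, group term only, in R 4.3.3). It was two-sided with Benjamini-Hochberg adjustment over 21141 genes and a threshold of 0.05. Since no label names separate cultures, p-values reflect only how these samples vary, possibly for technical reasons. The biological coefficient of variation was 17.7%. The SE is the fold change divided by the square root of F. Positions and exon lengths are from GENCODE M21 on GRCm38, and 99.9% of tested genes had a length. No libraries agreed within sampling noise (chi-square per gene 9.08 to 68.58). Same-numbered libraries did not deviate together, with correlations of 0.02, -0.11 and 0.02, beside -0.15 to 0.13 between libraries of different number. The labels do not say whether same-numbered libraries were handled together, and these correlations cannot settle it.

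Genes with values per library were 24 of the 40: a list of key genes and the 5 with the smallest p in each direction. Of each pathway list the 3 highest in level and the 2 with the smallest p were named, and of each marker list the 3 highest. Alternatives were DESeq2 1.42.0, limma-voom 3.58.1, RLE factors, upper-quartile factors, unscaled library sizes, no filter on low counts, 1 CPM or more in 3 libraries, the replicate number as a term, Pthlh left out of the library sizes, Ifit3 and Ifit3b summed, and each library left out in turn. The code was tested on simulated counts.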

Additional observations from a re-analysis of the deposited data

How the results depend on the processing

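Under each alternative 0 of the 40 genes passed the threshold, though the filter of 1 CPM in 3 libraries tested 28 of them and DESeq2 gave 30 an adjusted p. The number under 1 CPM was 12 under each scaling and with each library left out. Over all genes the edgeR count of 9 calls became 14 with library sizes alone, 220 with no filter on low counts, and 2 to 213 with 1 library left out (2 without DsRed 2, 4 without PTHrP 1, 4 without DsRed 1, 14 without PTHrP 3, 17 without DsRed 3, 213 without PTHrP 2). DESeq2 called 136 and limma-voom 18. Among the other pathway genes 0 calls became 3 with no filter (Ciita, Pdia3 and H2-T22), and 0 to 1 with 1 library left out. Members of the 40 with an unadjusted p under 0.05 numbered 5 with no filter and 1 to 6 with 1 library left out, and the median log2 fold change of the 40 ran from -0.09 to -0.04 over the latter. Of all genes, 8.90% had such an edgeR p in the main fit and 13.0% without PTHrP 2. That share is not given here for the other fits, so their counts cannot be set beside the genes at large. The replicate block gave 7 calls over all genes, 0 and 5 for the 40 genes by adjusted and unadjusted p, a median of -0.07, and it changed no other call.

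Of the 356 values of 24 followed genes under 15 fits, 340 kept their direction and their side of the threshold, 5 kept their direction with no adjusted p from DESeq2, and 11 reversed, and 19 genes never reversed. Reversals were in values near 0 or in scarce genes: H2-K1 (-0.033 to 0.13 with 1 library left out), Irf9 (-0.077 to 0.085) and Tap1 (-0.079 to 0.083, -0.0023 with upper-quartile factors, -0.0043 at 1 CPM or more in 3 libraries), Ifit3 (-0.10 to 0.88, and -0.22 summed with Ifit3b) and Isg15 (-0.28 with limma-voom). The cause was not tested. The variance between libraries of a group was at the median 5.92 times that of counting alone in the 12 genes under 1 CPM and 10.4 times in the other 28, while for Ifit1 it was 1.16 times. These ratios take each count as independent of the others, which was not tested.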
